A study of Homo sapiens with 8 samples.

Results

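The keratin mRNAs described here are the products of 10 genes, picked by gene symbol from the 57756 genes listed in every library. They are 4 keratins of simple epithelium, KRT7, KRT8, KRT18 and KRT19, and 6 other keratins, KRT5, KRT6A, KRT17, KRT23, KRT80 and KRT81. Each was found once by its symbol, and 8 of the 10 passed a minimum mean of 10 counts over the libraries, while KRT5 and KRT6A did not. RNA was sequenced from 4 human cancer cell lines, for which the labels name no treatment, namely Hep3B (hepatocellular carcinoma), HCT116 (colorectal), DU145 (prostate) and SW1990 (pancreatic) cells. Each line gave 1 library of RNA pulled down with an antibody to RPS6, a ribosomal protein of the small subunit, which is called RIP here, and 1 library of input RNA, so that there were 8 libraries. The titles of the liver pair abbreviate Hep3B, the name used in the paper, while its cell line field says Huh7, and it is called Hep3B below. The labels do not say how many cultures a line stands for, no library from a control antibody was analysed here, and the question was which RNAs were found with RPS6 in each cancer.

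Keratins are the intermediate filament proteins of epithelial cells. They form filaments as pairs of 1 acidic type I chain and 1 basic or neutral type II chain, so that a cell needs both kinds. KRT8 (type II) with KRT18 (type I) is the pair of simple epithelia such as liver, gut and pancreatic ducts, KRT7 (type II) and KRT19 (type I) mark ductal and glandular epithelia, and KRT5, KRT6A and KRT17 belong to basal, stressed or regenerating stratified epithelia. The patterns of KRT7 and other keratins are used in pathology to tell the origin of carcinomas.

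Depth lay between 34630354 and 54209614 fragments per library, recovered from the deposited estimated counts. Levels are given in FPKM, fragments per kilobase of transcript and per 1000000 fragments, and compare genes per length. Hep3B and HCT116 stand in 1 deposited table and DU145 and SW1990 in another, and the authors scaled these separately, so levels compared across the tables carry that limit, whereas RIP and input of a line are always in the same table. With 1 library of each kind per line, differences between lines have no replicate check. All 6 liver markers were at 1 FPKM or more in the Hep3B input, with ALB at 5030 FPKM and at most 0.938 in the other inputs. Defining markers of colorectum and pancreatic duct were partly absent, with 1 of 6 colorectal markers at that level in HCT116 (CDX2, 6.25 FPKM) and 3 of 6 pancreatic duct markers in SW1990 (SOX9, 60.6 FPKM, MSLN, 10.6, and MUC1, 1.16), the same number as in HCT116 and DU145. In the DU145 input the prostate genes HOXB13, TMPRSS2 and FOLH1 were listed at 0, while HCT116 and SW1990 held HOXB13 at 3.56 and 3.99 FPKM. The SW1990 input also held CDX2 at 86.6 FPKM and 3 more colorectal markers at 1 FPKM or more. In the Hep3B input 2 colorectal markers reached that level, VIL1 at 151.4 FPKM and LGR5 at 18.4, against 4.72 and 3.36 in SW1990. In bulk RNA, few cells with much keratin mRNA and many cells with little cannot be told apart. The epithelial adhesion gene CDH1 was between 8.40 and 40.8 FPKM in the 4 inputs.

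KRT8, KRT18 and KRT19 were abundant in all 8 libraries, and in each of the 4 lines all 3 were higher in RIP. KRT8, the type II chain of simple epithelia (ENSG00000170421), was at 375.9 FPKM in the Hep3B input and 1741 in its RIP, 95.4 and 415.2 in DU145, 457 and 2588 in HCT116, and 531.4 and 1523 in SW1990. The lowest RIP value, in DU145, was below the highest input value, in SW1990, so the kinds of library overlapped across lines while each pair was separated within its line. By edgeR's quasi-likelihood test with the cell line as a block and Benjamini-Hochberg adjustment over 19921 genes, KRT8 was 4.13-fold higher in RIP (log2 fold change 2.04 ± 0.26 (SE, n = 4 pairs), adjusted p = 9.47e-05). Of all genes tested, 26.5% were called higher in RIP by this test and 24.9% were called lower, and the median log2 fold change was -0.05. With library totals in place of TMM factors 3888 genes were higher and 6384 lower, against 5282 and 4960.

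KRT18, the type I partner of KRT8 (ENSG00000111057), was at 328.5 FPKM in the Hep3B input and 899.5 in its RIP, 104.3 and 269 in DU145, 519.1 and 1113 in HCT116, and 755.6 and 1646 in SW1990. It moved the same way in every line but by less, with a fold of 2.16 (log2 fold change 1.11 ± 0.23 (SE, n = 4 pairs), edgeR adjusted p = 0.00244). As a share of all fragments KRT18 was higher in RIP by 2.18-fold in Hep3B, 1.96-fold in DU145, 1.24-fold in HCT116 and 1.56-fold in SW1990. With library totals in place of TMM factors its log2 fold change was 0.76 (edgeR adjusted p = 0.0292). KRT19, the smallest keratin, which lacks most of the tail domain (ENSG00000171345), was at 141.1 and 671.4 FPKM in Hep3B input and RIP, 85.8 and 340.5 in DU145, 570.3 and 2312 in HCT116, and 229.2 and 756.4 in SW1990. HCT116 held the most KRT19 in both kinds of library and DU145 the least. KRT19 was 3.73-fold higher in RIP (log2 fold change 1.90 ± 0.23 (SE, n = 4 pairs), edgeR adjusted p = 6.97e-05).

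DU145 was lowest for all 3 of these genes. Its input level was 5.57 times below the highest line for KRT8, 7.25 times below for KRT18 and 6.65 times below for KRT19 in FPKM, and 5.55, 7.54 and 7.45 times below as a share of all fragments, a measure that does not depend on the scaling of the tables. KRT8 and KRT18 lie next to each other on chromosome 12, and the files give both the same locus (hg19, chr12:53290976-53346686), shared by 4 entries, and whether counting used the strand is not given in the sources used here. KRT8 has 50 listed pseudogenes, whose counts came to between 1.32% and 9.82% of those of KRT8, with the highest share in the DU145 input. The 67 listed KRT18 pseudogenes came to at most 2.76% of KRT18. Reads from near-identical copies may be split among them, and with the copies summed the same 4 keratins were called.

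KRT7 divided the lines. This type II keratin of ducts and glands (ENSG00000135480, chr12:52626303-52702947) was at 253.8 FPKM in the DU145 input and 1057 in its RIP, where it was the most abundant keratin of both libraries. It was at 1.96 and 4.26 FPKM in Hep3B, 16.2 and 10.5 in HCT116, and 3.17 and 0.210 in SW1990. DU145 thus stood far above the other lines, whose highest KRT7 value was that of the HCT116 input.

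KRT7 did not move in 1 direction. As a share of all fragments it was 348 per 1000000 (exact 95% interval 343 to 353) in the DU145 input and 1113 (1102 to 1124) in its RIP, a 3.20-fold higher share. In SW1990 it was 1.16 per 1000000 (0.840 to 1.56), from 43 fragments, in the input and 0.0520 (0.00629 to 0.188), from 2 fragments, in the RIP. In HCT116 the share was 8.43 per 1000000 (7.60 to 9.31) in the input and 5.51 (4.83 to 6.27) in the RIP, and in Hep3B the intervals of both libraries overlapped, with 86 and 108 fragments. These intervals cover counting error only, since fragments without molecular identifiers are not independent molecules. Over the 4 lines KRT7 did not pass the test (log2 fold change 0.27 ± 0.60 (SE, n = 4 pairs), edgeR adjusted p = 0.732), and without DU145 the estimate turned to -0.75 (edgeR adjusted p = 0.468). Its difference between lines was not tested.

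**Figure D1:**
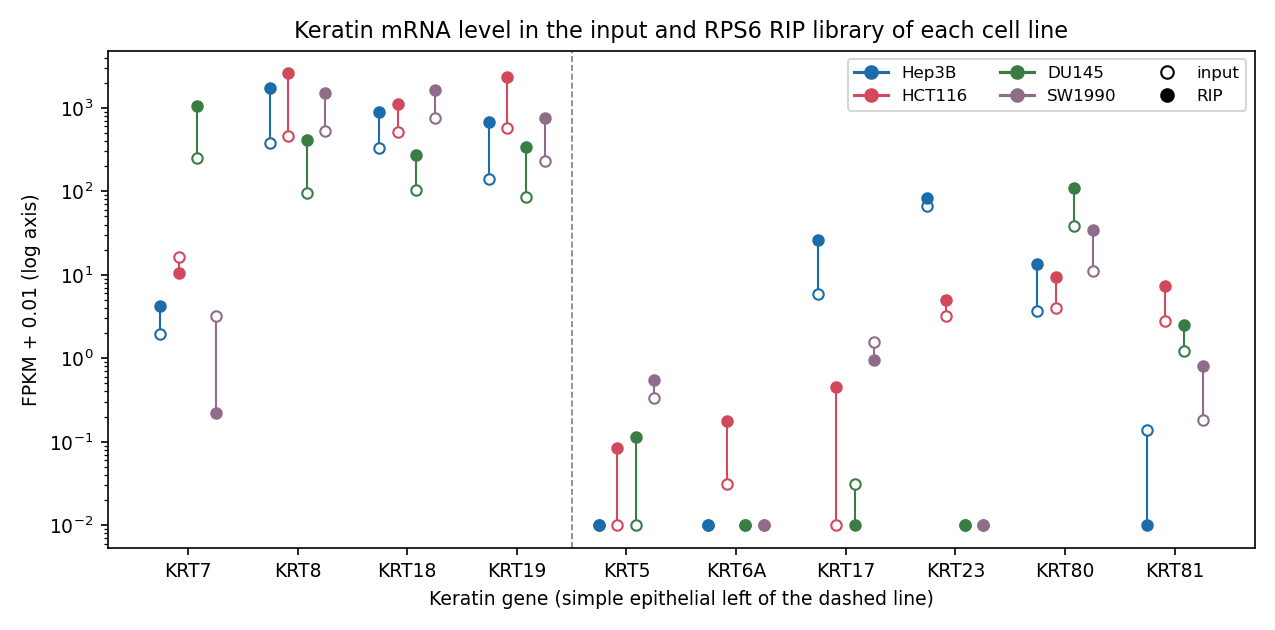
Level of each keratin in FPKM on a log axis, with 0.01 added so that a level of 0 can be drawn, for the input (open points) and the RIP library (filled points) of each of the 4 cell lines. KRT8, KRT18 and KRT19 sit at 85.8 FPKM or above in every library, KRT7 does so in DU145 alone, and the 6 other keratins reach at most 110.4 FPKM.

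Of the 6 other keratins, KRT80 was the one present in all lines and higher in RIP in all of them. KRT80, a type II keratin known from many tissues (ENSG00000167767, chr12:52562779-52585784), was at 3.71 FPKM in the Hep3B input and 13.4 in its RIP, 38.9 and 110.4 in DU145, 4.02 and 9.28 in HCT116, and 11.2 and 33.9 in SW1990. DU145 held most KRT80, as it held most KRT7, and Hep3B and HCT116 held least. KRT80 was 2.79-fold higher in RIP (log2 fold change 1.48 ± 0.19 (SE, n = 4 pairs), edgeR adjusted p = 9.92e-05).

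KRT17 and KRT23 were highest in Hep3B. KRT17, a type I keratin of basal and stressed epithelium (ENSG00000128422), was at 5.95 and 26.0 FPKM in Hep3B input and RIP, 0.0208 and 0 in DU145, 0 and 0.437 in HCT116, and 1.55 and 0.947 in SW1990. The Hep3B share was 7.33 per 1000000 (exact 95% interval 6.49 to 8.29) in the input and 34.2 (32.3 to 36.3) in the RIP, whereas in SW1990 the RIP share of 1.34 (0.986 to 1.74) was below the input share of 3.17 (2.61 to 3.78). KRT17 did not pass the test over the 4 lines (log2 fold change 1.15 ± 0.81 (SE, n = 4 pairs), edgeR adjusted p = 0.264), and the estimate rested on single lines. It was 0.24 (edgeR adjusted p = 0.883) without Hep3B, 0.70 without HCT116, 0.71 with near-identical copies summed, and 2.50 (edgeR adjusted p = 0.0164) without SW1990, where it passed. The files give KRT17 a locus (chr17:39775688-39943183) that is shared by 8 entries, among them the desmosomal gene JUP. In HCT116 and DU145 the summed counts of its listed copies and of KRT14 and KRT16 exceeded its own.

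KRT23, a type I keratin known from gut epithelium and diseased liver (ENSG00000108244, chr17:39077681-39132178), was at 66.9 and 82.2 FPKM in Hep3B input and RIP and at 3.20 and 5.0 in HCT116. No fragment fell on it in the libraries of DU145 and SW1990, which allows a share of at most 0.0816 per 1000000. Among the 4 lines it was therefore found in Hep3B and HCT116 alone, at unlike levels. Its direction depended on the scale, with RIP levels 1.23-fold higher in Hep3B and 1.56-fold higher in HCT116 in FPKM, and shares of all fragments of 0.915 and 0.852 times those of the input. KRT23 did not pass the test (log2 fold change 0.16 ± 0.27 (SE, n = 4 pairs), edgeR adjusted p = 0.647). This estimate rested on the pairs of Hep3B and HCT116, since those of DU145 and SW1990 held no fragment.

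KRT81, a type II hair keratin (ENSG00000205426), was at 0.130 FPKM in the Hep3B input and 0 in its RIP, 1.22 and 2.52 in DU145, 2.81 and 7.38 in HCT116, and 0.171 and 0.801 in SW1990. It was higher in RIP in 3 of 4 lines, and the exact intervals of the shares did not overlap in any of those 3. Over all lines it did not pass (log2 fold change 0.84 ± 0.70 (SE, n = 4 pairs), edgeR adjusted p = 0.345), and without Hep3B, where 10 input fragments faced 0 in RIP, it did (log2 fold change 1.33, edgeR adjusted p = 0.0129). The estimate fell to 0.49 (edgeR adjusted p = 0.756) without HCT116 and to 0.47 (edgeR adjusted p = 0.654) without SW1990. KRT81 shares its locus in the files with KRT7 and 5 other entries, and the counts of KRT83 and KRT86, which are near-identical to it, came to between 0% and 50% of its own.

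KRT5 and KRT6A, type II keratins of basal and of stressed stratified epithelium, were near the limit of detection. KRT5 (ENSG00000186081, chr12:52908358-52914471) was at 0.329 FPKM in the SW1990 input and 0.545 in its RIP, from 8 and 16 fragments, at 0 in the other inputs, and at 0.0751 and 0.105 in the RIP libraries of HCT116 and DU145. KRT6A (ENSG00000205420, chr12:52880957-52887041) was at 0.0213 and 0.165 FPKM in HCT116, from 3 and 13 fragments, and had no fragment in the other lines. Neither was tested by edgeR, and the exact sign-flip permutation test over the 4 lines gave p = 0.25 for KRT5 and p = 1 for KRT6A. The ratio differed from 0 in 3 lines for KRT5 and in 1 line for KRT6A. The test could therefore give KRT5 no smaller p and KRT6A no other, and it says nothing about either gene. A count of 0 allows a share of up to between 0.0553 and 0.0866 per 1000000, depending on the library, from a floor of 3 fragments.

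The 10 genes held nearly all keratin mRNA, at 97.0% or more of the summed FPKM of 56 keratin entries in every library. KRT8, KRT18 and KRT19 together made up between 90.5% and 96.0% of it in the inputs of Hep3B, HCT116 and SW1990, and 48.0% in DU145, where KRT7 made up 42.7%. The leading keratin differed by line, with KRT8 first in the Hep3B input, KRT19 in HCT116, KRT7 in DU145 and KRT18 in SW1990. In the RIP libraries KRT8 led in Hep3B and HCT116, KRT7 in DU145 and KRT18 in SW1990. The 6 other keratins made up 8.29% of the 10 genes' FPKM in the Hep3B input and 6.92% in DU145, against 0.640% in HCT116 and 0.864% in SW1990. In Hep3B most of this was KRT23 and in DU145 it was KRT80.

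**Figure D2:**
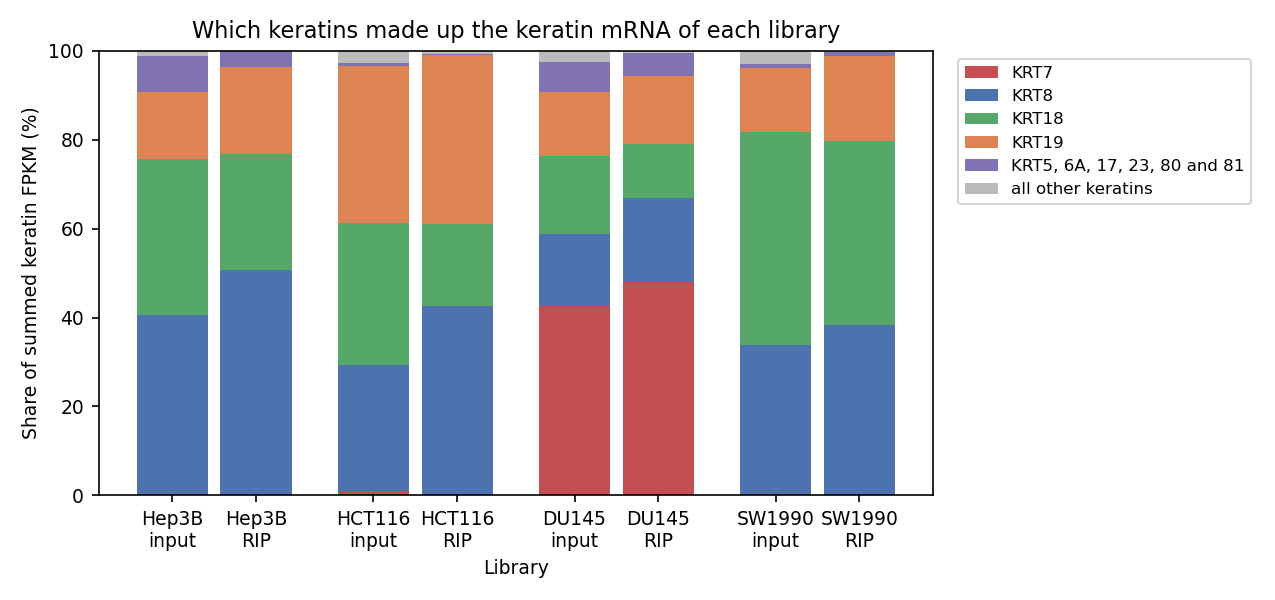
Share of the summed FPKM of all keratin entries taken by each simple keratin, by the 6 other keratins together and by all remaining keratins, as stacked bars for the 8 libraries. KRT7 takes 42.7% of the DU145 input and 47.9% of its RIP, and at most 1.0% of any other library.

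As a share of all fragments, the 10 genes summed were higher in RIP in every line, though not every member was. They took 0.181% of the fragments of the Hep3B input and 0.534% of its RIP, 0.105% and 0.295% in DU145, 0.308% and 0.722% in HCT116, and 0.308% and 0.591% in SW1990. This was a share between 1.92 and 2.95 times that of the input, the most in Hep3B and the least in SW1990. KRT8 moved up among all genes ranked by FPKM from 1041 to 167 in DU145, from 212 to 19 in Hep3B, from 203 to 13 in HCT116 and from 201 to 32 in SW1990.

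Of the 8 keratins tested, 4 were higher in RIP by edgeR, namely KRT8, KRT18, KRT19 and KRT80, beside 26.5% of all genes tested. The number called lower was 0, beside 24.9% of all genes tested, and it was also 0 at an unadjusted p under 0.05 and with DESeq2. The 4 simple keratins gave 3 of the higher calls and the 4 tested other keratins gave 1. The median log2 fold change was 1.5 for the simple and 0.99 for the tested other keratins. The same 4 genes were above input in 4 of 4 lines, as were 30.7% of all genes tested by the log2 ratio of (FPKM + 1). For each of them an exact two-sided sign-flip permutation test over the 4 lines gave p = 0.125, the smallest that 4 pairs allow. The exact test gave p = 0.875 for KRT7, whose log2 ratio averaged 0.13 ± 1.67 (SD, n = 4), against 2.08 ± 0.41 for KRT8, 1.26 ± 0.17 for KRT18, 1.99 ± 0.21 for KRT19 and 1.41 ± 0.26 for KRT80. Without the cell line as a block, none of the 8 passed.

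**Figure D3:**
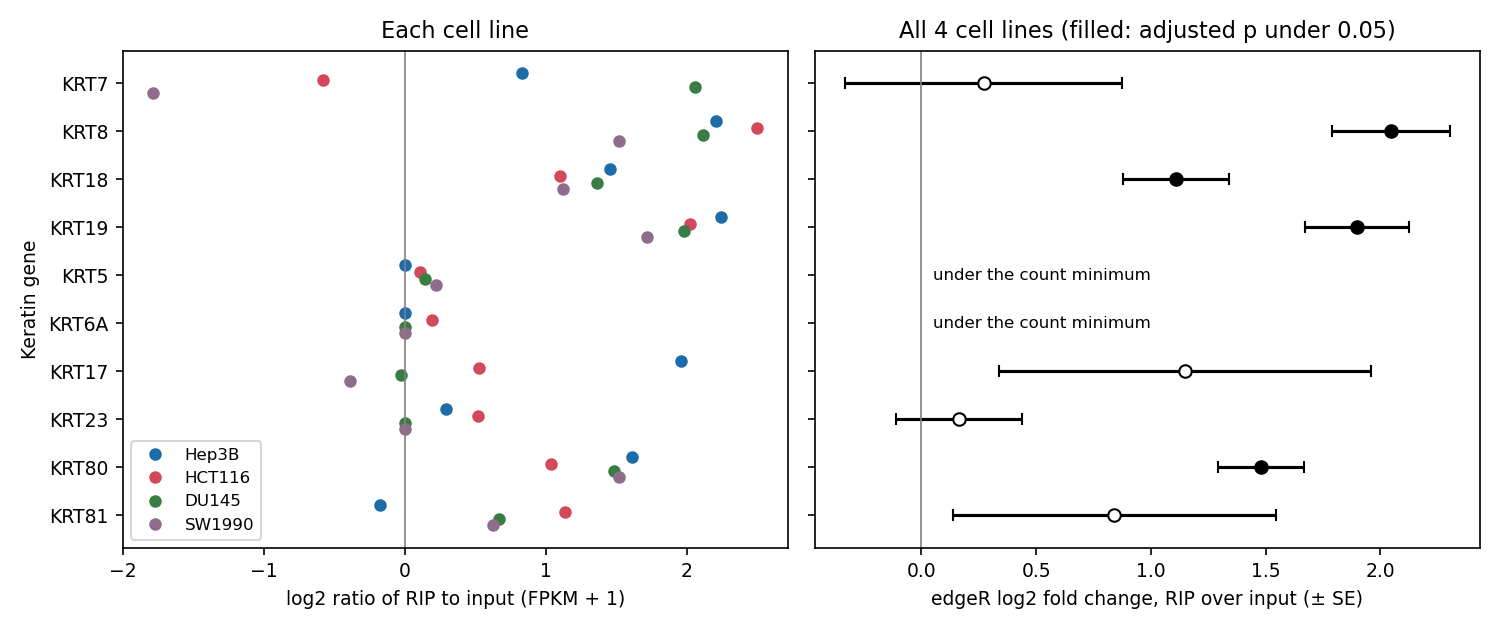
Left, log2 ratio of RIP to input, each as FPKM + 1, for every keratin in each of the 4 cell lines; right, the edgeR log2 fold change over the 4 lines with its SE, filled where the adjusted p was under 0.05. KRT8, KRT18, KRT19 and KRT80 lie right of 0 in every line, while KRT7 runs from -1.79 in SW1990 to 2.05 in DU145.

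Within the lines, the median log2 ratio of the 4 simple keratins was 2.02 in DU145, 1.83 in Hep3B, 1.56 in HCT116 and 1.32 in SW1990. That of the 6 other keratins was 0.07, 0.15, 0.52 and 0.11 in the same order, and the median of all genes tested lay between 0.00 and 0.08. The gap was smaller among better measured genes. Among other keratins with at least 10 counts in the line, the median was 1.08 in DU145, 1.61 in Hep3B, 1.03 in HCT116 and 0.42 in SW1990. Genes are not replicates, and the simple and the other keratins were not tested against each other.

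The balance between the partner chains was compared after the values were seen. KRT8 over KRT18, as a ratio of FPKM, was 1.14 in the Hep3B input and 1.94 in its RIP, 0.915 and 1.54 in DU145, 0.880 and 2.33 in HCT116, and 0.703 and 0.925 in SW1990. The ratio was higher in RIP in every line, and KRT18 still exceeded KRT8 in the SW1990 RIP. The log2 ratio of KRT8 was above that of KRT18 by 0.83 ± 0.42 (SD, n = 4 lines; exact sign-flip permutation test, p = 0.125), and by 0.93 ± 0.43 when fragments replaced FPKM.

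The sums over all type II and all type I keratins moved in the same direction. Outside DU145 nearly all of the type II sum was KRT8 (375.9 of 381.8 FPKM in the Hep3B input), so the comparisons are not independent. Type II over type I was 0.691 in the Hep3B input and 1.04 in its RIP, 1.91 and 2.57 in DU145, 0.423 and 0.754 in HCT116, and 0.532 and 0.648 in SW1990. DU145 alone held more type II than type I keratin in the input, and without KRT7 its input ratio was 0.668. The mean log2 change was 0.54 ± 0.24 (SD, n = 4 lines; exact sign-flip permutation test, p = 0.125), with all 4 lines above 0, and 0.53 ± 0.26 without KRT7. The type I chain KRT19 did not share the smaller rise of KRT18. Its log2 ratio was above that of KRT8 in Hep3B (2.24 against 2.21) and SW1990 (1.72 against 1.52). In HCT116 (2.02 against 2.50) and DU145 (1.98 against 2.11) it was below. A shift common to the type I chains is therefore not shown.

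**Figure D4:**
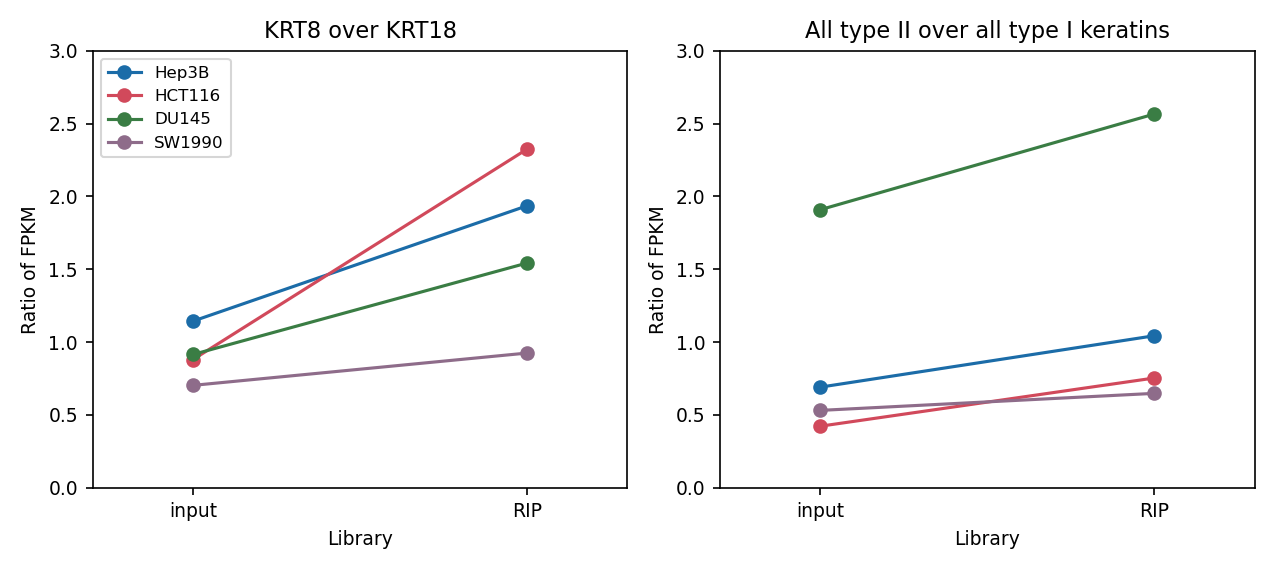
Ratio of KRT8 to KRT18 (left) and of all type II to all type I keratins (right) in FPKM, with a line joining the input and the RIP library of each cell line. Each of the 8 lines drawn rises from input to RIP, and DU145 starts highest on the right at 1.91.

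Of the 46 remaining keratin entries, 40 stayed below 1 FPKM in every library, among them KRT20, a keratin of intestinal epithelium, and KRT14, the basal partner of KRT5. The 10 that could be tested gave 0 higher and 2 lower calls, beside 26.5% and 24.9% of all genes tested. KRT10, the type I keratin of the suprabasal epidermis, was at 7.17 and 3.49 FPKM in Hep3B input and RIP, 9.63 and 4.88 in DU145, 11.1 and 2.47 in HCT116, and 41.6 and 4.16 in SW1990. It was lower in RIP in every line, opposite to KRT18 and KRT19 of the same type (log2 fold change -2.13 ± 0.37 (SE, n = 4 pairs), edgeR adjusted p = 0.000795). The other call was 1 of 2 entries named KRT222 at the same locus (log2 fold change -6.12, edgeR adjusted p = 0.00126), which was at most 0.219 FPKM outside the HCT116 input, where it was at 3.38, and which was not called by limma or without the block. KRT10 was called in all of the alternative fits. KRT15, a type I keratin of basal epithelium, was at 26.1 and 34.6 FPKM in HCT116 and at most 3.91 elsewhere, and did not pass (log2 fold change 0.06, edgeR adjusted p = 0.914). KRT71, KRT86 and the second KRT222 entry did not pass either.

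Among 12 tested genes of other intermediate filaments, 4 were higher in RIP, a share near the 26.5% of all genes called higher. Of the 12, 0 were lower, beside 24.9% of all genes, and their median log2 fold change was 0.74. DESeq2 called 1 and library totals called 2 of them lower, and 1 was higher without the block. These 4 were the nuclear lamins LMNA (2.65), LMNB2 (1.24) and LMNB1 (0.80) and VIM (1.64), the filament of mesenchymal cells. VIM was at 197.8 FPKM in the Hep3B input and 336.4 in DU145, and at 1.91 in HCT116 and 0.147 in SW1990. VIM and keratins were therefore both abundant in Hep3B and DU145.

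Of 16 tested genes that anchor keratin filaments, 11 were called higher in RIP and 0 lower, beside 26.5% and 24.9% of all genes tested, with a median log2 fold change of 1.20. The count was 7 with library totals in place of TMM factors and 7 without HCT116, and 0 without the block. JUP, plakoglobin of the desmosome plaque, had a log2 fold change of 2.63, the plakophilin PKP3 2.42, PLEC, the plectin linker, 2.31, and ITGB4, the hemidesmosome integrin that binds plectin, 3.14. DSP, desmoplakin, which ties keratins to the plaque, was at 31.0 and 55.3 FPKM in Hep3B, 6.80 and 13.6 in DU145, 12.2 and 68.3 in HCT116, and 15.9 and 28.7 in SW1990 (log2 fold change 0.94, edgeR adjusted p = 0.0193). PERP did not pass (log2 fold change -0.17, edgeR adjusted p = 0.556). Thus the linker genes differed among themselves.

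Among 10 genes whose proteins bind or modify keratins, 4 were higher and 3 lower in RIP, with a median log2 fold change of 0.17, beside the 26.5% higher and 24.9% lower of all genes tested. SFN, the 14-3-3 protein of epithelia, was higher (1.20), and the chaperone HSPB1 (0.40), the kinase CSNK1A1 (-0.09) and MAPRE1 (-0.05) did not pass. The rest of the higher calls, FAM83H (2.72), EPPK1 (2.64) and TRADD (0.87), and the lower calls, PNN (-2.35), TCHP (-1.45) and the KRT18-binding chaperone DNAJB6 (-0.90), are named after their values were seen. Of 15 tested epithelial regulators, 7 were higher and 2 lower, with a median of 0.75, to be read against the same shares. ELF3, an epithelial transcription factor (1.05), and the splicing factor ESRP2 (1.84) were higher, its relative ESRP1 (-0.58) was lower, and SP1 (-0.24) did not pass. TP63, the master factor of stratified epithelium, was at most 0.193 FPKM in any library.

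**Figure D5:**
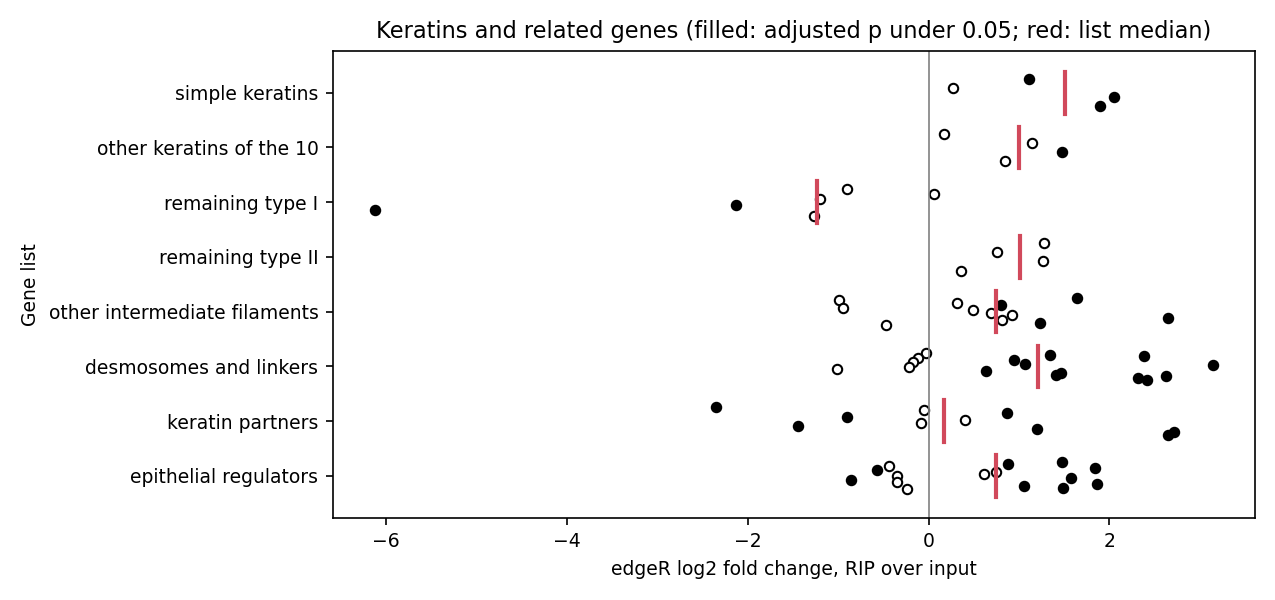
The edgeR log2 fold change of RIP over input for each tested gene of the keratin lists and of 4 related lists, filled where the adjusted p was under 0.05, with the list median as a red bar. Desmosome and linker genes hold 11 filled points right of 0 and 0 left of it, while the remaining type I keratins hold 2 filled points left of 0.

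Markers of epithelial and mesenchymal state gave mixed directions. The lists are too short to set apart from the 26.5% of all genes called higher and 24.9% called lower. Of 6 epithelial markers 3 were higher and 1 lower in RIP (median log2 fold change 0.70), with CDH1 (1.29) and CLDN4 (1.08) higher and EPCAM (-0.38) and CLDN7 (0.31) not passing. Of 6 mesenchymal markers 2 were higher, VIM and FN1 (1.48), and 1 lower, ZEB1 (-0.90), while CDH2 (0.39), which was at 24.1 FPKM in the Hep3B input and at 0 in the other inputs, did not pass. Of the tissue markers tested, 2 of 6 for liver, 1 of 4 for colorectum and 2 of 5 for pancreatic duct were higher and 0 were lower. Their part in the keratin results was not tested.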

How the data were processed

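The members and gene lists were chosen with earlier results of these data known. RNA from RPS6 immunoprecipitation (Magna RIP kit) and input was made into libraries with a stranded total RNA kit. The submitters' processing notes name CASAVA 1.8, TopHat2 2.0.9 and hg19, and the tool that counted fragments is not given in the sources used here. The authors deposited FPKM values, normalized by length and depth, and estimated counts (expected counts), scaled by 1 factor per library, in 2 tables of 4 libraries. The authors' own comparisons (fold changes, p-values and q-values of 1 library against 1) were not used, and 0 columns of other samples were present.

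Estimated counts were rounded and tested with edgeR 4.0.16 (R 4.3.3) as a quasi-likelihood fit with TMM, the cell line as a block and a mean of at least 10 counts, with Benjamini-Hochberg adjustment over 19921 genes and a threshold of 0.05. The block comes from the cell line in the labels, and each RIP library deviated from its group mean together with its own input (r between 0.828 and 0.877 across genes, which are not independent replicates). The fit was tested on simulated data. Dividing the estimated counts by the step of each library gave whole fragments for 90.9% to 92.7% of the values under 1000 fragments, within 0.02. Exact 95% intervals and the floor of 3 fragments use these. Values under 0.01 counts were set to 0. Ratios within a line are log2 of (FPKM + 1).

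Named are the 10 members, the 6 remaining keratin entries and the 4 genes of each other list with the highest mean FPKM, 6 keratin partners named after their values were seen, and CDH1, EPCAM, VIM, ZEB1, TP63, PLEC, DSP and JUP. A gene meant to tell the liver lines apart and the counts of the prostate marker list are not reported. Alternative fits had no block, DESeq2 1.42.0, limma 3.58.1 (pseudocount of 1 or 0.1 on FPKM), library totals, no minimum, a minimum of 50 counts, recovered fragments, summed copies, or 3 of the 4 lines. P-values measure how consistent the change from input to RIP was over the 4 pairs of libraries, with an estimate of spread that draws on all genes. They do not measure the spread between cultures of a line. Figures were drawn with matplotlib.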

Additional observations from a re-analysis of the deposited data

Results flagged for a closer look

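KRT7 went in opposite directions in different lines beyond counting error, with a log2 ratio of RIP to input of -1.79 in SW1990 against 2.05 in DU145. KRT17 was lower in RIP in SW1990 (-0.39) and higher in HCT116 (0.52) and Hep3B (1.96). KRT81 was lower in Hep3B (-0.18) and higher in the other lines (0.62 to 1.14). With 1 pair per line these differences were not tested. In addition, 1 line stood apart from the other 3 in 4 of 30 sets of 4 values, all of them of genes near 0. In each of these sets the other 3 values were 0.00, so any value above 0 would stand apart. The rate that chance gives, about 1 in 20, therefore does not apply to them. The log2 ratio of KRT6A also comes from its input and RIP values, so its sets are not independent. The level of KRT5 as log2(FPKM + 1) was 0.41 in the SW1990 input and 0.00 in the other inputs. For KRT6A, HCT116 stood apart in the input (0.03), in the RIP (0.22) and in the log2 ratio (0.19), with 0.00 in the other lines.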

How the results depend on the processing

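Among the 8 keratins tested, KRT8, KRT18, KRT19 and KRT80 were called higher in RIP in 12 of 13 alternative fits, and 0 were called lower in any. The exception was the fit with no replicate block, which ignores the pairing by cell line, where 0 were higher (adjusted p of 0.1 for KRT8, 0.411 for KRT18, 0.176 for KRT19 and 0.372 for KRT80) beside 1427 genes higher and 1344 lower in all. Leaving out each line gave between 4 and 5 keratins higher. KRT7 turned negative with DESeq2 (-0.09), library totals (-0.10), limma on log2(FPKM + 0.1) (-0.22) and without DU145 (-0.75, with up to 0.86 when another line was left out), while it was 2.01 with no replicate block, and KRT23 with library totals (-0.18). Library totals moved the median log2 fold change of all genes from -0.05 to -0.40 and the calls to 3888 higher and 6384 lower, from 5282 and 4960, and no minimum moved the median to -0.60. limma on log2(FPKM + 1) called 3255 genes lower. The median log2 ratio of the simple keratins by counts per 1000000 + 1 was 1.67 in DU145, 1.5 in Hep3B, 0.76 in HCT116 and 0.93 in SW1990. That of the other keratins was 0.28 in HCT116 by counts per 1000000 + 1, 1.16 in HCT116 and 0.50 in DU145 by FPKM + 0.1, and 1.08, 1.61, 1.03 and 0.42 over members with at least 10 counts in DU145, Hep3B, HCT116 and SW1990. The balance of chains was chosen after seeing the data, and it kept its direction with fragments in place of FPKM and without KRT7. The cause of these shifts was not tested. The 2 calls among the remaining keratins were 1 in both limma fits, with at least 50 counts, with no replicate block and without HCT116. KRT5, KRT6A and KRT7 in SW1990 rest on few fragments, and no fold is given for KRT5 and KRT6A.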
